A study of Homo sapiens with 3 samples.

Results

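Integrins and laminins were read in 3 RNA-seq libraries whose labels name Hep3B, a line from a human liver carcinoma. The members are the 37 protein-coding genes, of 22827 genes in the deposited table, whose symbol names an integrin alpha chain (17 genes), an integrin beta chain (8 genes) or a laminin alpha, beta or gamma chain (5, 4 and 3 genes). In one library, called USP39-KO here, the gene USP39 had been knocked out; its product is a ubiquitin-specific protease homologue that works in the spliceosome. In another, called SIRT7-KO, it was SIRT7, a nuclear deacylase of the sirtuin family, and the last library is labelled control. The labels do not say how the knockouts were made, whether a library is 1 clone or a pool, or how long the cells were grown. Each group is 1 library, so differences have no replicate check, nothing was tested and p-values are left out. The 95% interval after a ratio is exact for the read counts of the 2 libraries, reflects counting error only, and describes these libraries rather than the conditions.

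Counts summed to between 16151522 and 19427940 per library, of which the 37 members held 0.437% in USP39-KO, 0.513% in SIRT7-KO and 0.517% in the control. Each targeted gene was lowest in the library named for it: in USP39-KO, USP39 stood at 0.688 of the control, and in SIRT7-KO, SIRT7 stood at 0.736 of it, so neither reached a 2-fold difference. The liver label was set against 10 hepatocyte markers, of which 5 (ALB, AFP, TTR, APOB and APOA2) had no read in any library and 8 had under 10 reads in every library. The remaining 2 were HNF4A, with 29, 7 and 113 reads in USP39-KO, SIRT7-KO and control, and FGB, with 1, 2 and 55. In the control HNF4A and FGB held 5.82 and 2.83 CPM. The 10 together summed to 2.07 CPM (counts scaled to library size) in USP39-KO, 0.613 CPM in SIRT7-KO and 8.9 CPM in the control, and the part of these levels in the results below was not tested. The epithelial keratin KRT8 was abundant, at 24379, 26167 and 37684 reads in USP39-KO, SIRT7-KO and control, while CDH1 and EPCAM had under 40 reads in each library. A value of 0 in this table does not in itself show a silent gene: PLEC, the widely used cytolinker plectin, was listed at 0 reads in USP39-KO and SIRT7-KO and 9 in the control.

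Integrins are cell surface receptors made of an alpha and a beta chain, which join the matrix outside the cell to the actin or keratin skeleton inside. Laminins are secreted trimers of an alpha, a beta and a gamma chain that form the sheet of basement membranes, and the alpha chain carries the main sites that integrins bind. The pairs of chains are restricted: most alpha chains pair with beta1, alphaV with several beta chains, and alpha6 with either beta1 or beta4. In adult liver, hepatocytes face a space with little laminin, whereas bile ducts and vessels rest on basement membranes.

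**Figure D1:**
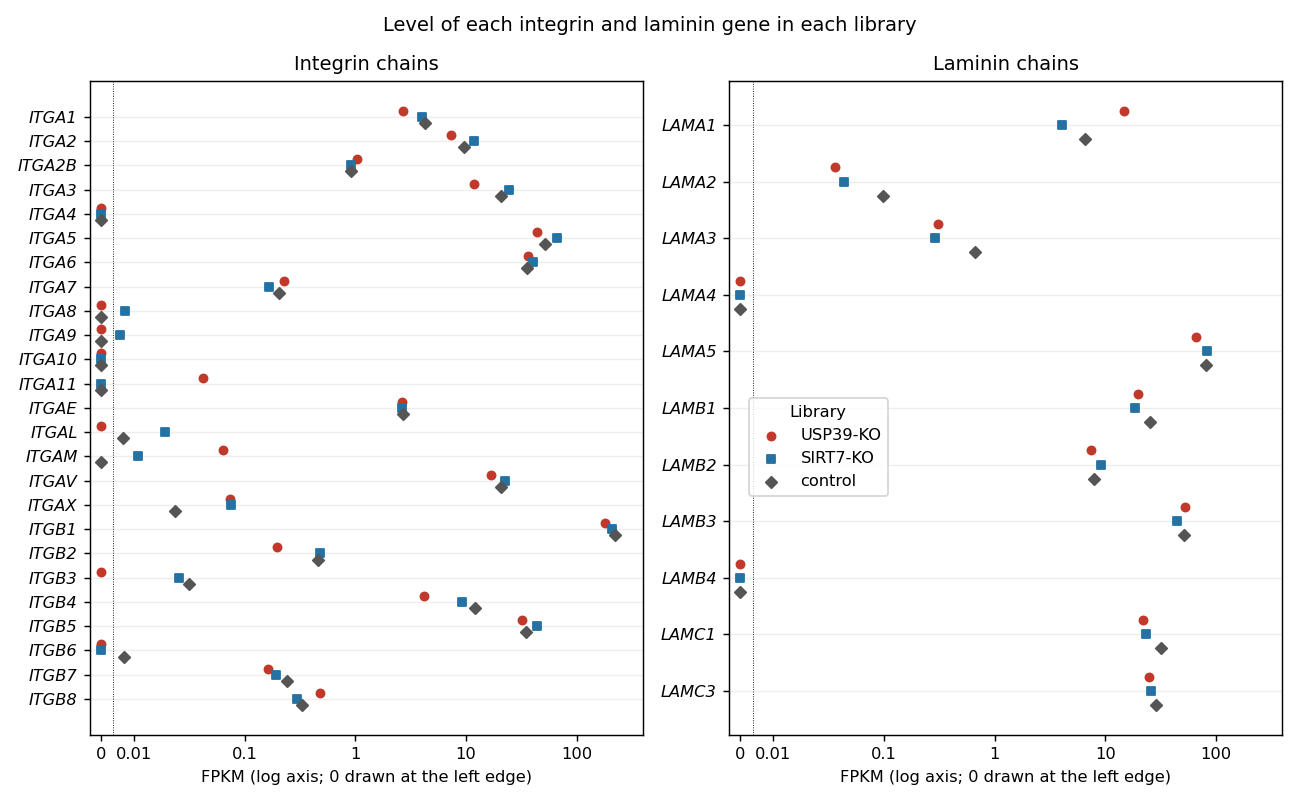
FPKM (read counts scaled by gene length and library total, deposited) of the members in each library, 1 left out, on a log axis with 0 drawn at the left edge. ITGB1 and LAMA5 lead their families in all 3 libraries, and LAMA1 and ITGB4 are the abundant members whose USP39-KO values lie farthest from the control.

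Of the 37 members, 24 had at least 10 reads in 1 or more libraries, and 19 had at least 100. The other 13 comprised 4 with no read anywhere (ITGA4, ITGA10, LAMA4 and LAMB4) and 9 with 1 to 9 reads at most. Levels between genes are compared here as FPKM, which corrects for length. ITGB1, the beta chain shared by most integrins, was the most abundant member, at 181.9 FPKM in USP39-KO, 207.4 in SIRT7-KO and 221.5 in the control. LAMA5, the laminin alpha5 chain, followed at 66.5, 83.6 and 81.4 FPKM in the same order. Next came ITGA5 with 43.8, 66.6 and 52.1 FPKM and LAMB3 with 53.0, 44.6 and 52.1 FPKM, a pair whose order differed between libraries. Some genes of the family lie beside one another. LAMB1 and LAMB4 are 20.3 kb apart on chromosome 7, with LAMB4 at 0 reads throughout. ITGA1 and ITGA2, 30.1 kb apart on chromosome 5, were both detected in each library. Below, a gene with at least 10 reads in a library is higher or lower by the 2-fold rule where 2 libraries differ by at least 2-fold in CPM and the interval excludes no difference. Of the 12726 genes with at least 10 reads in a library, 4.86% differed so between USP39-KO and control, 7.06% between SIRT7-KO and control, and 8.54% between the knockouts.

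The laminin receptors were read first. ITGB4, the beta chain that anchors alpha6 to keratin filaments at hemidesmosomes, had 28.6 CPM in USP39-KO, 61.1 CPM in SIRT7-KO and 81.8 CPM in the control (471, 997 and 1589 reads). USP39-KO was thus the lowest library for this gene and the control the highest. ITGB4 (chromosome 17, 75721328 to 75757818, plus strand, GRCh38 in GENCODE 29; no source used here gives the authors' build) was 2.86-fold lower in USP39-KO than in the control (2.58 to 3.17; log2 ratio -1.51). In SIRT7-KO its log2 ratio was -0.42 (-0.54 to -0.31). In bulk RNA, fewer cells making a message and less message per cell cannot be told apart. Its partner ITGA6, the laminin-binding alpha6 chain, had 245 CPM in USP39-KO, 270 in SIRT7-KO and 238 in the control, with log2 ratios against the control of 0.04 (-0.02 to 0.10) and 0.18 (0.12 to 0.24). The ratio of the 2 chains does not depend on library scaling. ITGB4 stood at 0.116 of ITGA6 in USP39-KO, 0.224 in SIRT7-KO and 0.341 in the control, as ratios of FPKM. The ITGB4 to ITGA6 ratio in USP39-KO was 0.340 times that of the control (exact conditional interval 0.304 to 0.381), and in SIRT7-KO 0.659 times (0.602 to 0.721).

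ITGA3, which pairs with beta1 as a receptor for laminin-332 and the alpha5 laminins, had 118 CPM in USP39-KO, 237 in SIRT7-KO and 204 in the control. The gene was lower in USP39-KO (log2 ratio -0.79, -0.87 to -0.71) and slightly higher in SIRT7-KO (0.22, 0.15 to 0.28), with both intervals clear of 0 and neither past 2-fold. Relative to ITGB1, ITGA3 was at 0.696 times its control ratio in USP39-KO (0.657 to 0.738) and 1.25 times in SIRT7-KO (1.19 to 1.32). ITGA6 relative to ITGB1 was at 1.24 times its control ratio in USP39-KO and 1.22 times in SIRT7-KO. The beta1 receptors for laminin therefore differed in their chains: in USP39-KO the alpha3 message was low and the alpha6 message was not. ITGA7, the muscle laminin receptor chain, had 24, 17 and 25 reads in USP39-KO, SIRT7-KO and the control, with both intervals against the control spanning 0.

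The collagen receptor chains ITGA1 and ITGA2 pair with beta1 and bind basement membrane and fibrillar collagens. ITGA1 had 50.5 CPM in USP39-KO, 73.8 in SIRT7-KO and 78.6 in the control, a log2 ratio of -0.64 (-0.76 to -0.52) in USP39-KO and -0.09 (-0.20 to 0.02) in SIRT7-KO. ITGA2 had 58.5, 91.9 and 76.6 CPM, with log2 ratios of -0.39 (-0.51 to -0.27) and 0.26 (0.16 to 0.37). USP39-KO was the lowest library for both. Other collagen-binding chains had few reads, with ITGA10 at 0 reads and ITGA11 at 4 reads in USP39-KO and 0 elsewhere.

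Among chains that bind the RGD tripeptide of fibronectin and vitronectin, ITGA5 was the most abundant. This fibronectin receptor chain had 336 CPM in USP39-KO, 500 in SIRT7-KO and 395 in the control, so SIRT7-KO was highest and USP39-KO lowest. Its log2 ratios were -0.23 (-0.28 to -0.18) in USP39-KO and 0.34 (0.30 to 0.39) in SIRT7-KO. The ITGA5 to ITGB1 ratio was 1.02 times that of the control in USP39-KO, with an interval spanning 1 (0.985 to 1.07), and 1.37 times the control in SIRT7-KO (1.32 to 1.42). ITGAV had 138, 183 and 171 CPM in USP39-KO, SIRT7-KO and control. Its partner ITGB5, which makes the vitronectin receptor alphaVbeta5, had 208, 278 and 227 CPM. In USP39-KO their log2 ratios were -0.31 and -0.13, and in SIRT7-KO 0.09 and 0.30, and all 4 intervals left out 0. ITGB8, a beta chain that with alphaV binds latent TGF-beta, had 120, 72 and 96 reads, with a log2 ratio of 0.56 (0.16 to 0.96) in USP39-KO and -0.16 (-0.62 to 0.29) in SIRT7-KO. ITGB3 and ITGB6 had 3 reads or fewer in every library.

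Most chains best known from blood cells had under 100 reads, ITGAE being the exception. ITGB2, the beta chain of leukocyte integrins, had 22 reads in USP39-KO, 52 in SIRT7-KO and 61 in the control, and was 2.35-fold lower in USP39-KO than in the control (1.42 to 4.02). Its alpha partners ITGAL, ITGAM and ITGAX each had 8 reads or fewer per library, with ITGAM at 6 reads in USP39-KO, 1 in SIRT7-KO and 0 in the control. Of 8 leukocyte markers, 3 had at least 10 reads in a library, and the list summed to 3.95 CPM in USP39-KO, 5.45 in SIRT7-KO and 4.84 in the control, with PTPRC and CD4 at 0 throughout. Their part in the ITGB2 values was not tested. ITGA2B, the platelet fibrinogen receptor chain, had 96, 81 and 99 reads in USP39-KO, SIRT7-KO and control, beside 0, 2 and 3 reads of its partner ITGB3. Of the 5 platelet markers, 4 had no read in any library. ITGAE, known from intraepithelial lymphocytes, had 290, 284 and 348 reads (17.6, 17.4 and 17.9 CPM), so its 3 levels lay within counting error of each other. Its partner ITGB7 had 12, 14 and 21 reads, but 42.1% of ITGB7 exon bases overlap ZNF740 on the opposite strand in GENCODE 29, and the counting is not stated to use strand.

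LAMA1 had the widest spread across the 3 libraries of the members with at least 100 reads. This gene, for the alpha chain of laminin-111 and a laminin of early embryos, had 237 CPM in USP39-KO, 64.3 CPM in SIRT7-KO and 104 CPM in the control (3899, 1049 and 2017 reads). USP39-KO was the highest library and SIRT7-KO the lowest. LAMA1 (chromosome 18, 6941744 to 7117814, minus strand) was 2.28-fold higher in USP39-KO than in the control (2.16 to 2.41; log2 ratio 1.19), the only one of the 24 members with at least 10 reads that was higher by the 2-fold rule. In SIRT7-KO it was at 0.619 times its control level (0.574 to 0.667; log2 ratio -0.69), short of 2-fold. An antisense gene not analysed here covers 10.3% of LAMA1 exon bases. The counting is not stated to use strand, so reads from LAMA1 and its antisense partner may not have been separated there.

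LAMA5, the alpha chain of laminin-511 and laminin-521, had 989 CPM in USP39-KO, 1217 in SIRT7-KO and 1196 in the control. It was slightly lower in USP39-KO (log2 ratio -0.28, -0.30 to -0.25) and in SIRT7-KO its interval included 0 (0.03, -0.0024 to 0.05). By FPKM, LAMA5 made up 81.5% of the alpha chain level in USP39-KO, 94.98% in SIRT7-KO and 91.8% in the control, and LAMA1 18.1%, 4.65% and 7.38%. As a ratio of reads, LAMA1 to LAMA5 was 2.76 times the control value in USP39-KO (2.61 to 2.93) and 0.609 times in SIRT7-KO (0.563 to 0.658). LAMA3, the alpha chain of the epithelial laminin-332, was scarce and lower in both knockouts, with 69 reads in USP39-KO, 63 in SIRT7-KO and 174 in the control. It was 2.14-fold lower in USP39-KO (1.61 to 2.87) and 2.32-fold lower in SIRT7-KO (1.73 to 3.15), each against the same control library. LAMA3 thus passed the 2-fold rule in both knockouts. The 2 calls share the control count of 174 reads and are not independent. LAMA2, the muscle laminin alpha chain, had 6, 7 and 19 reads. It passed the rule in USP39-KO (2.68-fold lower, 1.03 to 8.21), but not in SIRT7-KO, where the interval spanned 0.

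**Figure D2:**
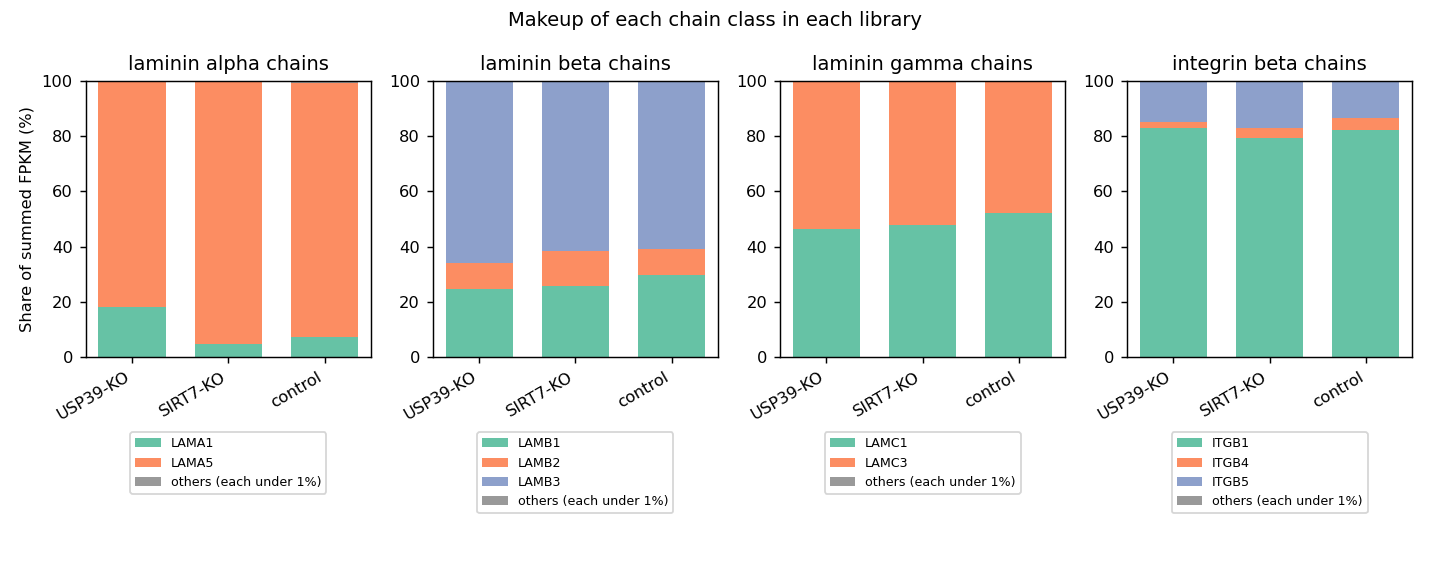
Share (%) of the summed FPKM of each chain class held by each gene, in bars for USP39-KO, SIRT7-KO and control. LAMA1 takes 18.1% of the alpha chain level in USP39-KO against 7.38% in the control, while ITGB1 holds 79.4 to 83.1% of the integrin beta chain level in all 3 libraries.

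No laminin beta or gamma chain passed the 2-fold rule. LAMC1, the gamma1 chain found in most laminins, had 185 CPM in USP39-KO, 195 in SIRT7-KO and 268 in the control, and was lower in both knockouts (log2 ratios -0.53, -0.60 to -0.47, and -0.46, -0.52 to -0.39). LAMB1, the beta1 chain, had 162, 150 and 207 CPM and was likewise lower in both (-0.35, -0.42 to -0.28, and -0.46, -0.53 to -0.39). In SIRT7-KO the LAMB1 to LAMC1 ratio was 0.997 times that of the control (0.932 to 1.07), and in USP39-KO 1.13 times (1.06 to 1.21). LAMB2, the other beta chain used with alpha5, had 51.9, 62.7 and 54.2 CPM, with log2 ratios of -0.06 (-0.19 to 0.07) and 0.21 (0.08 to 0.34). LAMC3, the gamma3 chain, had 25.01, 25.7 and 29.003 FPKM in USP39-KO, SIRT7-KO and control, while LAMC1 had 21.8, 23.4 and 31.8 FPKM. By FPKM, LAMC3 thus lay above LAMC1 in both knockouts and below it in the control. As a ratio of reads with no length correction, LAMC3 to LAMC1 was 1.04, 0.991 and 0.823, so the order in SIRT7-KO depends on that correction. LAMC3 had log2 ratios of -0.20 in USP39-KO and -0.19 in SIRT7-KO.

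LAMB3 is known as the beta chain of laminin-332, whose alpha chain is alpha3. It was the most abundant beta chain by FPKM, with 66.1%, 61.5% and 61.0% of the beta chain level in USP39-KO, SIRT7-KO and control. Its alpha partner was scarce, with LAMA3 at 0.307, 0.288 and 0.662 FPKM in the same order. LAMB3 had log2 ratios of 0.04 (-0.02 to 0.10) in USP39-KO and -0.24 (-0.30 to -0.17) in SIRT7-KO, while the LAMA3 to LAMB3 ratio was 0.455 times its control value in USP39-KO (0.338 to 0.607) and 0.508 times in SIRT7-KO (0.373 to 0.684).

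Of the laminin genes lower in both knockouts, which also include LAMC3, LAMA3, LAMB1 and LAMC1 were chosen. Their promoter sequences are shown with that of LAMA5, the dominant alpha chain. They are from RefSeq on GRCh38.p14, 5′ to 3′ on the gene's strand, 250 bases before to 50 after a listed start, and 26 of the 37 members had an entry. Capitals mark the GC box GGGCGG and the AP-1 motif TGANTCA, searched on both strands. The regions are chr18:23872770-23873069 (plus strand) for LAMA3, chr7:108003112-108003411 (minus) for LAMB1, chr1:183023170-183023469 (plus) for LAMC1 and chr20:62367263-62367562 (minus) for LAMA5.
LAMA3: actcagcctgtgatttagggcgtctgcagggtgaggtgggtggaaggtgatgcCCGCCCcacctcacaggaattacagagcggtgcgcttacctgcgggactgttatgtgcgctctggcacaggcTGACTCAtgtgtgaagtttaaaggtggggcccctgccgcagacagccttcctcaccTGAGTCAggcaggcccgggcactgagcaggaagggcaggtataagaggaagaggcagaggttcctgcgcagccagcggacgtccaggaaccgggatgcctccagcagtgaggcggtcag
LAMB1: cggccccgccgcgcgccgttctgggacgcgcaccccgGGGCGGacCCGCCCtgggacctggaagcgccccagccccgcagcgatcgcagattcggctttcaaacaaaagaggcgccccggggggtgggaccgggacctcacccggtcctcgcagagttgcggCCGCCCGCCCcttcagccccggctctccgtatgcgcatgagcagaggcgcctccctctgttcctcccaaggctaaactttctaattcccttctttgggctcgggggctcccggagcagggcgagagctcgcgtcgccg
LAMC1: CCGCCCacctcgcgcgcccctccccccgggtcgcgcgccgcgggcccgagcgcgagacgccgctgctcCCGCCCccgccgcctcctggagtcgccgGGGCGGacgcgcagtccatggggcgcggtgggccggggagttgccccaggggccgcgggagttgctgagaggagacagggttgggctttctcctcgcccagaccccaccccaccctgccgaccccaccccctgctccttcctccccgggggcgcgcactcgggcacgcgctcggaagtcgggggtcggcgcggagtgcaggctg
LAMA5: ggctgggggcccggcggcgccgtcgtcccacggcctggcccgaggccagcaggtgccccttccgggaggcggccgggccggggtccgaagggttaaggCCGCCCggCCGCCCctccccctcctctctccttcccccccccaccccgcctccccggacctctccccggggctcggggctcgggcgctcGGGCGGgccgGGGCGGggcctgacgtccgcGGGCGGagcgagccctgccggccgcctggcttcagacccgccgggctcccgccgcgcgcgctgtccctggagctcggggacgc
The LAMA3 window, which lies at a start inside the gene, held 2 AP-1 motifs and 1 GC box. LAMB1 held 4 GC boxes (2 of them overlapping), LAMC1 3 and LAMA5 5, and none of these 3 windows held the AP-1 letters. Among all 35116 promoters of equal length, 45.0% held a GC box and 7.71% the AP-1 motif; of the 26 members with an entry, 14 (53.8%) and 3 (11.5%) did. GC made up 61.7% of the LAMA3 window, 71.0% of LAMB1, 79.0% of LAMC1 and 82.7% of LAMA5. These are matches of letters, and gene-level reads cannot tell which start was used.

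Known chain combinations were set beside these levels. Of 23 known integrin pairs, 11 had at least 10 reads in 1 or more libraries for both chains, and 9 had at least 100. They comprise alpha1beta1, alpha2beta1, alpha3beta1, alpha5beta1, alpha6beta1, alpha6beta4, alphaVbeta1, alphaVbeta5 and alphaVbeta8. Of 14 known laminin trimers, 7 had at least 100 reads in a library for all 3 chains. In laminin-511 the least abundant chain was beta1, at 19.7 FPKM in USP39-KO, 18.7 in SIRT7-KO and 25.4 in the control. In laminin-111 it was alpha1, at 14.8, 4.09 and 6.54 FPKM. In alpha6beta4 it was beta4, at 4.19, 9.13 and 12.1 FPKM. Transcript levels do not show which proteins were made or assembled.

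Taken as a family, the members were first compared between USP39-KO and the control. Most of the abundant members were lower in USP39-KO by modest amounts, with ITGB4 the lowest of those with at least 100 reads and LAMA1 the highest. By the 2-fold rule 1 member was higher (LAMA1) and 4 were lower (ITGB4, ITGB2, LAMA3 and LAMA2) of 24 with at least 10 reads. Across all 12726 such genes, 1.49% were higher and 3.37% lower. Intervals lay below 0 for 15 of the 24 members and above 0 for 2, against 22.5% and 22% of these genes. With at least 100 reads, 3 of 19 members passed the rule, since ITGB2 and LAMA2 rest on few reads. Of all 10181 genes with that many reads, 1.71% did. Among the 16 members with at least 1000 reads in a library, 12 had an interval below 0 and 1 above, against 27.2% and 31.1% of the 4784 genes at that depth. The 2-fold rule was passed upward by 10 of those 4784 genes (0.209%), LAMA1 being 1 of them, and downward by 15 (0.314%), ITGB4 being 1 of them. The median log2 ratio was -0.27 over the 24 members and -0.0022 over all genes. The exceptions among the 16 were LAMA1, which was higher, and ITGA6, LAMB2 and LAMB3, whose intervals spanned 0.

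**Figure D3:**
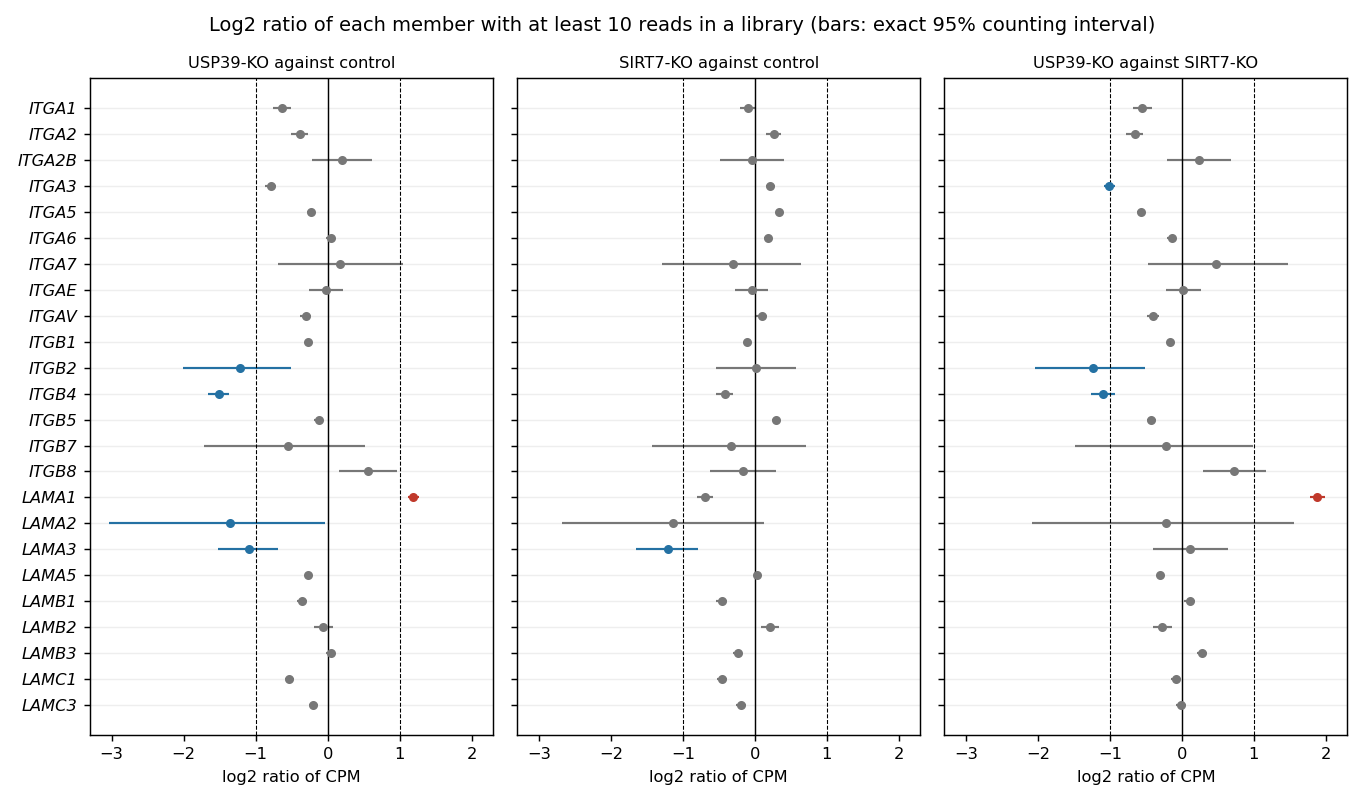
Log2 ratio of CPM with exact 95% counting intervals for the 24 members with at least 10 reads in a library, for USP39-KO against control, SIRT7-KO against control and USP39-KO against SIRT7-KO. Dashed lines mark 2-fold; red points passed the rule upward (LAMA1) and blue points downward (ITGB4, ITGB2, LAMA3 and LAMA2 in USP39-KO, LAMA3 in SIRT7-KO, and ITGB4, ITGB2 and ITGA3 in USP39-KO against SIRT7-KO).

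Between SIRT7-KO and the control, integrin alpha chains leaned upward and laminin chains downward. Of 9 integrin alpha chains with at least 10 reads, 5 had intervals above 0 (ITGA2, ITGA3, ITGA5, ITGA6 and ITGAV) and none below, with a largest log2 ratio of 0.34. Of 9 laminin chains, 6 had intervals below 0 (LAMA1, LAMA3, LAMB1, LAMB3, LAMC1 and LAMC3) and 1 above (LAMB2). By the 2-fold rule 0 members were higher and 1 was lower (LAMA3), where 3.02% and 4.05% of all genes passed. Intervals lay above 0 for 7 of the 24 members and below 0 for 8, against 27.3% and 28.8% of all genes. Among the 16 members with at least 1000 reads, 7 intervals lay above 0 and 7 below, beside 33.5% and 37.7% of all genes at that depth, and none passed the 2-fold rule, where 0.523% were higher and 0.732% lower. The median log2 ratio over the 24 members was -0.10, against -0.010 over all genes.

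**Figure D4:**
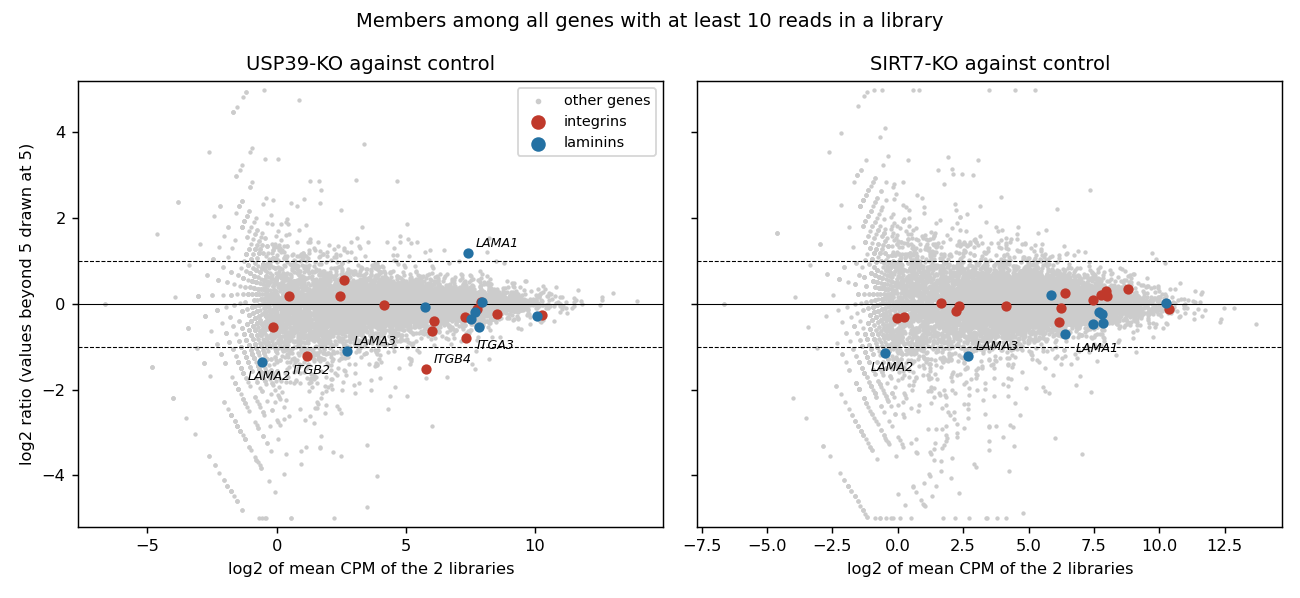
Log2 ratio against log2 mean CPM of the 2 libraries for all 12726 genes with at least 10 reads in a library (grey), with integrins in red and laminins in blue, for USP39-KO and for SIRT7-KO against control. In USP39-KO LAMA1 (1.19) lies above the 2-fold lines, and ITGB4 (-1.51), LAMA2 (-1.36), ITGB2 (-1.21) and LAMA3 (-1.09) lie below them. In SIRT7-KO LAMA3 (-1.21) and LAMA2 (-1.14, with an interval spanning 0) lie below them.

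Both knockouts were set against the same control library, so the 2 were also compared directly. LAMA1 was 3.69-fold higher in USP39-KO than in SIRT7-KO (3.44 to 3.95; log2 ratio 1.88). ITGB4 was 2.13-fold lower (1.91 to 2.39), ITGB2 2.38-fold lower (1.42 to 4.12) and ITGA3 2.01-fold lower (1.90 to 2.12), the last on the edge of the rule. So 1 member was higher and 3 were lower, where 3.51% and 5.03% of all genes passed. Intervals lay above 0 for 4 of the 24 members and below 0 for 13, against 29.8% and 29.2% of all genes. With at least 1000 reads, 3 of 16 members lay above 0 and 12 below, against 39.9% and 34.7%, and 1 was higher and 2 lower by the 2-fold rule, against 1.09% and 1.09%. Of the 9 integrin alpha chains 6 had an interval below 0 (ITGA1, ITGA2, ITGA3, ITGA5, ITGA6 and ITGAV) and none above. Laminin chains went both ways, with LAMA1, LAMB1 and LAMB3 above 0 and LAMA5, LAMB2 and LAMC1 below. LAMA3 and LAMC3 did not differ beyond counting error (log2 ratios 0.12, -0.39 to 0.64, and -0.01, -0.08 to 0.06).

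The matrix that these receptors bind was read from a list of 30 integrin ligands, of which 20 had at least 10 reads. In USP39-KO 0 were higher by the rule and 2 lower (FGB and TNC), and in SIRT7-KO 2 were higher (FN1 and FGG) and 2 lower (NPNT and FGB). Across all genes the rule was passed by 1.49% upward and 3.37% downward in USP39-KO, and by 3.02% and 4.05% in SIRT7-KO. Fibronectin, FN1, is the main ligand of alpha5beta1. It had 813 reads in USP39-KO, 4621 in SIRT7-KO and 871 in the control, and its log2 ratio of 2.66 in SIRT7-KO (2.55 to 2.77) stood beside 0.34 for ITGA5 and -0.11 (-0.14 to -0.08) for ITGB1. In USP39-KO FN1 had 0.14 (0.00026 to 0.28), ITGA5 -0.23 and ITGB1 -0.27. NPNT, nephronectin, a ligand of alpha8beta1, had 365 reads in USP39-KO, 119 in SIRT7-KO and 860 in the control (log2 ratios -0.996 and -2.60), while ITGA8 had 1 read in all 3 libraries together. TGFB1, whose latent form binds alphaV integrins, had log2 ratios of -0.08 in USP39-KO and 0.86 in SIRT7-KO. FGB and FGG, fibrinogen chains, were scarce: USP39-KO held 1 FGB and 0 FGG reads, SIRT7-KO 2 and 16, and the control 55 and 2. TNC, tenascin C, had 0, 10 and 15 reads in that order. TGFBI, an adhesion protein of the matrix, had -0.76 in USP39-KO and 0.34 in SIRT7-KO, and was lower by the rule in USP39-KO than in SIRT7-KO (-1.09). CCN2 had 0.77 (0.62 to 0.92) in USP39-KO and 0.54 in SIRT7-KO, and MFGE8 0.69 (0.28 to 1.12) and 0.40 (-0.04 to 0.85). In USP39-KO 6 of the 20 ligands had an interval above 0 and 6 below, beside 22% and 22.5% of all genes. In SIRT7-KO the counts were 8 and 8, beside 27.3% and 28.8%. VTN, vitronectin, was listed at 0 reads in all 3 libraries.

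**Figure D5:**
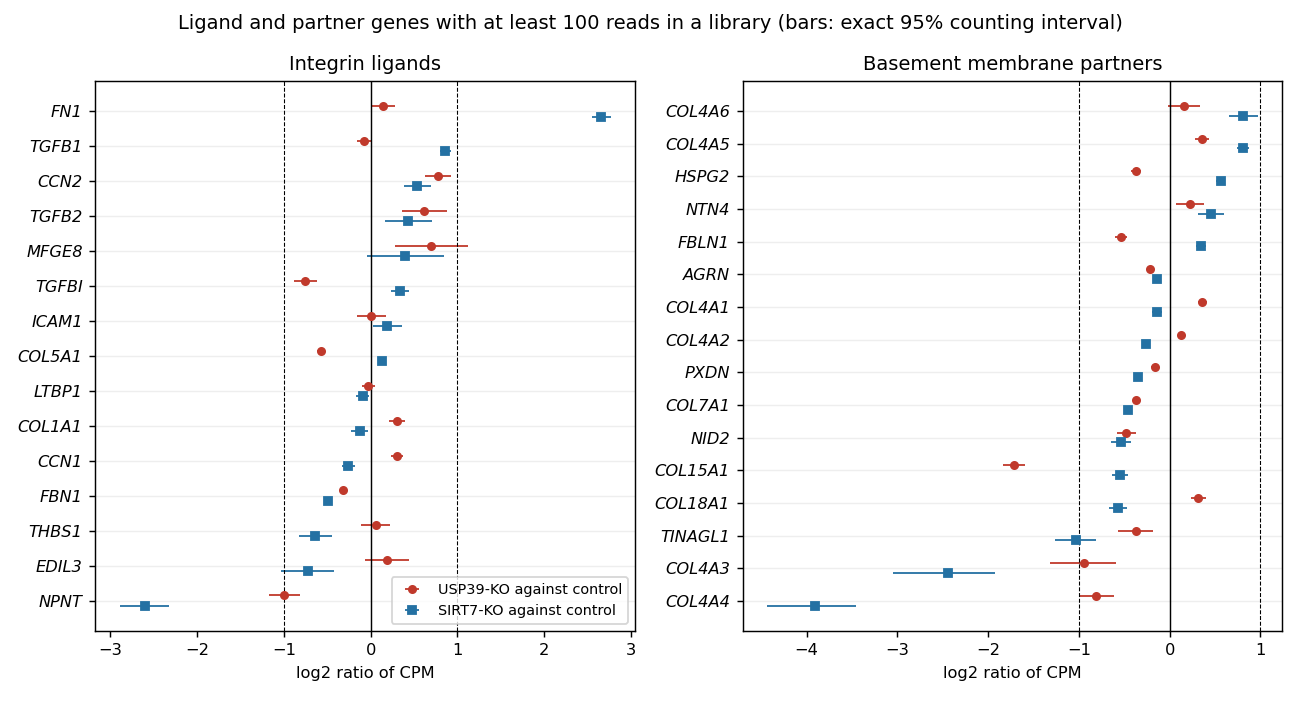
Log2 ratio of CPM with exact 95% counting intervals for ligand genes and basement membrane partner genes with at least 100 reads in a library, USP39-KO (red circles) and SIRT7-KO (blue squares) against the same control. FN1 (2.66) is farthest to the right, and COL4A4 and NPNT farthest to the left, all 3 in SIRT7-KO, whereas COL15A1 is farthest to the left in USP39-KO.

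Of 19 genes for basement membrane partners of laminin, 16 had at least 10 reads. In USP39-KO 1 was lower by the rule: COL15A1, a collagen of basement membrane zones, with 732 reads in USP39-KO, 1637 in SIRT7-KO and 2840 in the control (log2 ratio -1.72 in USP39-KO, -1.84 to -1.60, and -0.54 in SIRT7-KO). In SIRT7-KO 3 were lower and 0 higher: COL4A4 (-3.91), COL4A3 (-2.45) and TINAGL1 (-1.03). Of all genes, 3.37% were lower by the rule in USP39-KO, and 4.05% lower and 3.02% higher in SIRT7-KO. COL4A3 and COL4A4 code for chains of the alpha3alpha4alpha5 collagen IV network and had 5.59 and 20.2 CPM in USP39-KO, 1.96 and 2.33 CPM in SIRT7-KO and 10.8 and 35.3 CPM in the control. COL4A5, the alpha5 chain of that network, went the other way, with 3082, 4180 and 2844 reads in USP39-KO, SIRT7-KO and control. Its log2 ratios were 0.36 (0.28 to 0.43) in USP39-KO and 0.81 (0.74 to 0.88) in SIRT7-KO. COL4A6 had 0.16 (-0.02 to 0.34) and 0.81 (0.65 to 0.97). The widely used collagen IV chains COL4A1 and COL4A2 were slightly lower than the control in SIRT7-KO (-0.14 and -0.26) and slightly higher in USP39-KO (0.36 and 0.13), each with an interval excluding 0. HSPG2, the proteoglycan perlecan, had -0.38 in USP39-KO and 0.56 in SIRT7-KO. NID2, the nidogen that bridges laminin to collagen IV, had 1094, 1041 and 1796 reads and log2 ratios of -0.48 and -0.54, close to those of its binding partner LAMC1 (-0.53 and -0.46). The related NID1 had 2 reads or fewer per library. The median over the 16 was -0.29 in USP39-KO and -0.31 in SIRT7-KO, beside -0.0022 and -0.010 over all genes.

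All 18 genes of a list of other laminin receptors and the enzymes that glycosylate dystroglycan had at least 10 reads. In USP39-KO 1 was lower by the rule and 0 higher: BCAM, the Lutheran receptor for laminin alpha5, had 113 reads in USP39-KO, 202 in SIRT7-KO and 298 in the control (log2 ratio -1.16, -1.49 to -0.84, in USP39-KO). In SIRT7-KO 1 was higher and 0 lower: LARGE2, a dystroglycan glycosyltransferase, had 9, 34 and 15 reads (1.40, 0.52 to 2.41). Such calls were made for 3.37% of all genes downward and 1.49% upward in USP39-KO, and for 4.05% and 3.02% in SIRT7-KO. DAG1, dystroglycan itself, had log2 ratios of -0.33 in USP39-KO and 0.10 in SIRT7-KO. The heparan sulfate receptor SDC2 had 0.70 and 0.74, and SDC1 -0.45 and 0.39. Of 8 hemidesmosome genes, 5 had at least 10 reads and none passed the rule in either knockout. In USP39-KO 4 of the 5 had an interval below 0 and 0 above, beside 22.5% and 22% of all genes. In SIRT7-KO the counts were 3 and 1, beside 28.8% and 27.3%. The 4 below 0 in USP39-KO were KRT8, KRT18, DST and CD151, each with at least 1000 reads in a library. At that depth 27.2% of genes lay below 0 and 31.1% above in USP39-KO, and 37.7% and 33.5% in SIRT7-KO. The remaining gene, COL17A1, had 8, 14 and 13 reads in USP39-KO, SIRT7-KO and control. Log2 ratios in USP39-KO and SIRT7-KO were -0.39 and -0.27 for KRT8, -0.28 and -0.28 for DST, -0.20 and 0.16 for CD151, and -0.30 and -0.15 for KRT18. ITGB4 had -1.51 and -0.42.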

How the data were processed

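Libraries were prepared from Trizol-extracted RNA with a TruSeq kit, per the labels' protocols. No source used here gives the aligner, the counter, the build, the annotation, or the treatment of strand and of reads that match several genes. The authors deposited raw read counts per gene and FPKM. The deposited FPKM equal counts scaled by listed length and library total in 100% of genes with reads (relative tolerance 1e-06), and served only to compare levels between genes. Symbols for 19649 of 22827 Ensembl identifiers came from a gene name table and GENCODE 29, and coordinates from GENCODE 29.

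CPM used TMM library sizes (edgeR 4.0.16). Log2 ratios used a prior of 0.5 counts, and their intervals are exact conditional binomial (Clopper-Pearson, 95%); ratios between 2 genes carry exact conditional odds-ratio intervals. Intervals and floors leave out all but counting error, since reads carry no molecular identifiers. At 0 reads a level of up to 3 counts is allowed, which is 0.182, 0.184 and 0.154 CPM in USP39-KO, SIRT7-KO and control. A gene was called at 2-fold with an interval that left out 0, if a library held at least 10 counts. With 1 library per group no dispersion could be estimated. The steps were tested on simulated counts.

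Members, lists and rules were chosen with earlier results of these data known. Members with at least 100 counts or called in a comparison are described. For other lists the rule was up to 4 genes farthest from 0 with at least 100 counts and up to 6 called genes. Not all genes that this rule picked are named. Other genes, such as PLEC, VTN, COL4A1, COL4A5, DAG1, NID2 and ITGA8, were named after their values were seen, and the 1000-count threshold was added then. The values of 1 member are not reported here. Alternatives were other scalings, count filters, a prior of 2 counts, a 1.5-fold rule and shares of reads.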

Additional observations from a re-analysis of the deposited data

Results flagged for a closer look

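For 6 members the 2 knockouts lay on opposite sides of the shared control, each with an interval excluding 0. All 6 had at least 1000 reads, so they are 6 of 16 members at that depth (37.5%), beside 20.6% of the 4784 genes there; with at least 10 reads they are 6 of 24 members (25%), beside 12.1% of 12726 genes. The ratio between the knockouts, given for each, follows from the opposite signs and adds no separate evidence. With 1 library per group these differences were not tested. LAMA1 was above the control in USP39-KO and below it in SIRT7-KO, with a log2 ratio of 1.88 for USP39-KO against SIRT7-KO. The other 5 were integrin chains that lay below the control in USP39-KO and above it in SIRT7-KO. Their log2 ratios for USP39-KO against SIRT7-KO were -0.65 for ITGA2, -1.01 for ITGA3, -0.57 for ITGA5, -0.40 for ITGAV and -0.42 for ITGB5. ITGAV was the weakest of them on the SIRT7-KO side (0.09, 0.02 to 0.17).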

How the results depend on the processing

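No paired analysis was possible because each group has 1 library, and for the same reason no replicate could be left out. Scaling by library totals or by median-of-ratios size factors left all counts of called members as reported, and kept the sign of each of 21 named members against the control. In USP39-KO against SIRT7-KO, library totals turned the sign of ITGAE, whose interval spans 0. With at least 100 counts in a library, 3 members were called in USP39-KO against control in place of 5, because ITGB2 and LAMA2 were no longer counted. Of all 10181 genes at that depth, 1.71% were called. With a 1.5-fold rule, 2 members were called in SIRT7-KO against control in place of 1, LAMA1 being added. The 1.5-fold rule called 15% of all 12726 genes in that comparison. As shares of reads with no length correction, LAMA5 held 80.4%, 94.7% and 91.3% of the laminin alpha chains in USP39-KO, SIRT7-KO and control, LAMA1 19.3%, 4.999% and 7.92%, and ITGB1 82.1%, 78.3% and 81.0% of the integrin beta chains. The remaining alternatives kept the counts within 1.5 times and moved the medians by less than the median half-width of the single members' intervals. Without a count filter the SIRT7-KO median against control was -0.04 in place of -0.10. With library totals, ITGB1 in USP39-KO against SIRT7-KO had -0.1891, just outside its interval (-0.1878 to -0.1304). Across all genes, calls in USP39-KO were 189 higher and 429 lower with at least 10 counts, and 48 and 126 with at least 100. In SIRT7-KO they were 384 and 515, and 136 and 210. For USP39-KO against SIRT7-KO they were 8.54% of 12726 genes, and 4.93% of 10181. Depth limits the 13 members under 10 reads: without that minimum, ITGAM alone of them was added in USP39-KO against control (6 against 0 reads), which made 6 members in place of 5. Without the minimum, 4.4% of 15644 genes were called in that comparison.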

Other observations

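Genes of the adhesion plaque, which link integrin tails to actin, had medians near 0. Of 45 listed, 43 had at least 10 reads, with a median log2 ratio of 0.04 in USP39-KO and 0.03 in SIRT7-KO. Single genes went both ways. In USP39-KO 15 of the 43 had an interval above 0 and 11 below, beside 22% and 22.5% of all genes. In SIRT7-KO 10 lay above and 15 below, beside 27.3% and 28.8%. In USP39-KO 2 were lower by the 2-fold rule and 0 higher: TNS2, a tensin, had 106 reads in USP39-KO, 375 in SIRT7-KO and 281 in the control (-1.16), and ITGB1BP2 had 5, 11 and 21 reads. In SIRT7-KO 2 were lower and 0 higher: NEDD9, a scaffold of focal adhesions, had 434, 164 and 529 reads (-1.44), and ILK, integrin-linked kinase, 28, 9 and 27 reads (-1.29, -2.61 to -0.20). The ILK call rests on few reads. TGFB1I1, a paxillin relative, had 0.23 in USP39-KO and -0.96 in SIRT7-KO, and was higher by the rule in USP39-KO than in SIRT7-KO (1.19). The tensin TNS4 had -0.35 and 0.70. The adaptor talin, TLN1, had 0.03 and 0.37.

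Of 12 tetraspanins, which sit beside integrins in the membrane, 6 had an interval below 0 in USP39-KO and 1 above, beside 22.5% and 22% of all genes. CD151, also listed with the hemidesmosome genes, is 1 of the 6. In USP39-KO 2 tetraspanins were lower by the 2-fold rule, beside 3.37% of all genes. CD37 had 60 reads in USP39-KO, 115 in SIRT7-KO and 172 in the control (-1.27 in USP39-KO), and CD53 had 2, 7 and 13. In SIRT7-KO 3 of the 12 had an interval above 0 and 2 below, beside 27.3% and 28.8% of all genes, and none passed the rule. CD82 had log2 ratios of -0.86 and 0.13. Of 12 integrin trafficking genes, 11 had at least 10 reads. By the rule 1 was lower in SIRT7-KO, where 4.05% of all genes were. That gene was FABP3, a fatty acid binding protein with 279, 79 and 267 reads and log2 ratios of 0.30 and -1.50. The endocytic adaptor DAB2 had 0.27 and -0.30. Markers of endothelium summed to 0.729 CPM in USP39-KO, 0.919 in SIRT7-KO and 1.13 in the control, and fibroblast markers to 139.6, 114.5 and 118.1 CPM, of which COL1A1 made 125.8, 93.3 and 101.8 CPM and PDGFRB 13.2, 19.98 and 15.5 CPM, with COL1A2 at 0, DCN at 4 reads or fewer and LUM at 1 or none.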
